A study of Mus musculus with 15 samples.

Results

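The Nrf2 pathway was followed through 10 of the 39179 genes counted in quadriceps muscle, namely Nfe2l2, Keap1, Nqo1, Hmox1, Gclc, Gclm, Gsr, Srxn1, Txnrd1 and Slc7a11. The genes were taken by name as known members of the pathway, with earlier results of these data in view, and each was present in the count file of all 15 mice. RNA-seq compared wild-type C57BL/6 mice with mice of the same strain that are homozygous for V338Y in Mrps5, a protein of the small subunit of the mitochondrial ribosome, and the mutation is reported to make that ribosome misread the genetic code. The 3 mo groups held 4 wild-type and 4 V338Y mice, the 19 mo groups held 3 wild-type and 4 V338Y mice, and 1 library was made per mouse. The mutation is carried in the germ line and so is present in every cell type of the muscle. The design asks how ageing changes muscle transcripts in each genotype and whether the mutation changes them at either age.

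Nfe2l2 encodes Nrf2, a transcription factor that pairs with small Maf proteins on a DNA element called the antioxidant response element (ARE). In unstressed cells Keap1 holds Nrf2 for a ubiquitin ligase built on cullin 3, so that Nrf2 is made and broken down without pause. Oxidants and electrophiles modify Keap1 cysteines, Nrf2 then accumulates, and genes for glutathione synthesis, the thioredoxin system and detoxification are transcribed. Much of this control acts on protein, which transcript counts do not measure.

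The depth of the libraries ran from 8250653 to 18968132 counts per mouse. Levels are given as CPM, counts made comparable between libraries by TMM scaling, and fold changes and adjusted p-values come from edgeR's quasi-likelihood test over all genes tested, with an adjusted p under 0.05 counted as a change. In whole muscle, fewer cells of a type and less RNA per cell cannot be told apart. Mrps5 itself stood at 23.7 ± 1.83 CPM (SD, n = 4) in wild-type and 25.7 ± 1.5 (SD, n = 4) in V338Y mice at 3 mo, and at 17.7 ± 1.79 (SD, n = 3) and 17.4 ± 1.64 (SD, n = 4) at 19 mo. Counts per gene do not show the mutated codon. Xist, the RNA of the inactive X chromosome, was at 0 to 0.575 CPM in the 8 mice at 3 mo and at 506 to 631 CPM in the 7 mice at 19 mo, while the Y-linked Ddx3y was at 163 to 202 CPM at 3 mo and at most 0.0827 CPM at 19 mo. Age and sex therefore cannot be told apart in any comparison of ages below. The paper describes both 3 mo groups and the 19 mo wild-type group as female, which the values at 3 mo contradict. One library stood apart, that of V338Y mouse 5 at 19 mo. Its correlation with the rest of its group was 0.9617, against 0.9788 to 0.9914 for the other mice, and the summed level of 5 neutrophil markers was 545 CPM, against 2.30 to 24.2 CPM in the other 3 V338Y mice and 2.07 to 4.30 CPM in the wild-type mice of that age.

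The windows around the transcription start are shown for 6 genes, because the ARE sits in regulatory DNA. RefSeq (GRCm38.p6) gave 9 windows of 250 bases before and 50 bases after a start for 7 of the 10 genes. Hmox1, Gclc and Gsr are named only. The core of the ARE, TGACNNNGC on one strand or GCNNNGTCA on the other, was searched on both strands and is in capitals. It was found in 1 window each of Nfe2l2, Gclm, Srxn1 and Txnrd1, that is in 4 of the 7 genes, whereas 12.4% of all 32851 windows and 14% of all 27025 genes held it. Each sequence reads 5′ to 3′ along the gene's own strand, and the windows of Keap1 and Nqo1, in which these letters were not found, are given for contrast, since the comparisons below turn on these 2 genes.

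Nfe2l2, chr2:75704614-75704913, minus strand: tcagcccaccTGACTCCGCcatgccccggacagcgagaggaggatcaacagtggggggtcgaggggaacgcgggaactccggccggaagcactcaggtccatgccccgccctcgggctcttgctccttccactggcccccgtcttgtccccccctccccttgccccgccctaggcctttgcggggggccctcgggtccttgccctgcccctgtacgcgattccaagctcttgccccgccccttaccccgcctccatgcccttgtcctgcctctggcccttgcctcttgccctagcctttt
Gclm, chr3:122245307-122245606, plus strand: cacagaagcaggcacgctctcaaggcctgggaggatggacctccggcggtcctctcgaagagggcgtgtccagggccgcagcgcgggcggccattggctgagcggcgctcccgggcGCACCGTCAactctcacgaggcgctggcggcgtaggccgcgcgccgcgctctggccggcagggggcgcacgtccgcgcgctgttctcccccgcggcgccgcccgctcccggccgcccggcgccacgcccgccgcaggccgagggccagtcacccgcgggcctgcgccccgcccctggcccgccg
Srxn1, chr2:152105274-152105573, plus strand: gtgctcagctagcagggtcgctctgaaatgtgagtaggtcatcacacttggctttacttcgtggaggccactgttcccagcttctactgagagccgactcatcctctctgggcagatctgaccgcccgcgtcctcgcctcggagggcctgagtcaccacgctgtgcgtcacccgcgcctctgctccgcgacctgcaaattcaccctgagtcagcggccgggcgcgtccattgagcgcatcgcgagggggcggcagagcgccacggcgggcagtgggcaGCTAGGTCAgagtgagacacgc
Txnrd1, the second of its 3 windows, chr10:82858956-82859255, plus strand: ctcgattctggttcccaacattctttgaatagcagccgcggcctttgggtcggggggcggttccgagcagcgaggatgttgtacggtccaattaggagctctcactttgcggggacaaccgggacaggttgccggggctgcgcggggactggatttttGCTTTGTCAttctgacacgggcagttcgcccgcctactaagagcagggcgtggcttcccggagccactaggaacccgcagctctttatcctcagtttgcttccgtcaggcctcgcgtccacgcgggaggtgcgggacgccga
Keap1, chr9:21239283-21239582, minus strand: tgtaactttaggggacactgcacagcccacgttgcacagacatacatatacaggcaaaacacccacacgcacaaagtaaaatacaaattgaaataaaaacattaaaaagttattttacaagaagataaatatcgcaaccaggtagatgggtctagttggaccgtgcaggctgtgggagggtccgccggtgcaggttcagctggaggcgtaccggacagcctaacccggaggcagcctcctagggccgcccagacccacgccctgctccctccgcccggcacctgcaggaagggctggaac
Nqo1, chr8:107403156-107403455, minus strand: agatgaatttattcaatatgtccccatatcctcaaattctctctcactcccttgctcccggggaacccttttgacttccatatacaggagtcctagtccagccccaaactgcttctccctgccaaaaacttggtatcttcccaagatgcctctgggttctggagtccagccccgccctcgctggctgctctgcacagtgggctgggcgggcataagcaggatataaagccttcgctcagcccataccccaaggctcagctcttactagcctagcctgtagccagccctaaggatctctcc

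The core began 240 bases before the start in Nfe2l2, 134 bases before it in Gclm and 92 bases before it in the Txnrd1 window, and at base 29 of the transcript in Srxn1. The shorter AP-1 element TGACTCA, also searched on both strands and able to overlap an ARE, was found in 5.2% of all windows and 2 times in that of Srxn1, apart from the core. A match of letters is a description of the sequence and not of binding, and a window without a match leaves the rest of the locus unsearched.

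The 10 genes lie on 5 chromosomes of GRCm38. Nfe2l2 (ENSMUSG00000015839, chr2:75675513-75704641, minus strand) and Srxn1 (ENSMUSG00000032802, chr2:152105516-152111376, plus strand) share chromosome 2 with Mrps5, 51.9 Mb and 24.5 Mb from it. Keap1 (ENSMUSG00000003308, chr9:21229730-21239361) and Gclc (ENSMUSG00000032350, chr9:77754535-77794485) lie on chromosome 9. Nqo1 (ENSMUSG00000003849, chr8:107388225-107403206), Hmox1 (ENSMUSG00000005413, chr8:75093621-75100589) and Gsr (ENSMUSG00000031584, chr8:33652523-33698163) lie on chromosome 8. Gclm (ENSMUSG00000028124, chr3:122245557-122270732) and Slc7a11 (ENSMUSG00000027737, chr3:49892526-50443614) lie on chromosome 3, and Txnrd1 (ENSMUSG00000020250, chr10:82833951-82897712) on chromosome 10. Antisense genes that were also counted overlap Keap1 (Gm16754) and Gclm (Gm17494). Counted genes on the same strand overlap Nfe2l2 (Gm24996), Gclm (Gm6061) and Gsr (Gm24727), and the use of strand would not separate these. The annotation also places Eid3 on the strand of Txnrd1. The annotation places further antisense genes, not analysed here, at Txnrd1 (Gm38560 and Gm47073) and Slc7a11 (Gm37854, Gm37826 and Gm2345), and whether the counting used strand is not given in the sources used here.

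Muscle expressed 9 of the 10 genes. Per kilobase of exon, the median level over the 15 mice was highest for Nqo1, at 14.1 CPM per kb, followed by Keap1 at 12.7, Srxn1 at 12.4, Nfe2l2 at 11.9, Txnrd1 at 10.9 and Gsr at 10.3 CPM per kb. The ranges of these 6 overlapped from neighbour to neighbour. Keap1 exceeded Srxn1 in 7 of 15 mice, for example, so their order was not settled by these data. A gap followed. Gsr was above Gclc in 15 of 15 mice with no overlap of their ranges, and Gclc (4.19 CPM per kb), Hmox1 (3.49) and Gclm (2.78) formed a lower group whose neighbours overlapped. Slc7a11 lay far below, at a median of 0.00963 CPM per kb.

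**Figure D1:**
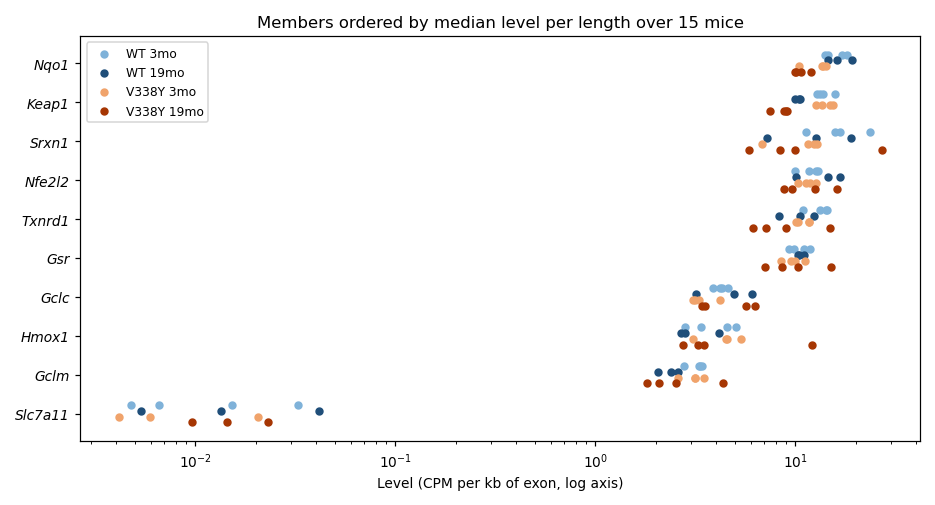
Level of each gene per kilobase of exon (CPM per kb, log axis) in each of the 15 mice, coloured by group and ordered by the median. Nqo1 to Gsr overlap near 10 CPM per kb, Gclc, Hmox1 and Gclm lie lower, and Slc7a11 lies apart, with its 2 mice at 0 counts left off the log axis.

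Slc7a11, the light chain of the cystine importer that feeds glutathione synthesis, was close to undetected in muscle. Its counts were 1, 3, 1 and 5 in wild-type mice 1 to 4 and 1, 3, 1 and 0 in V338Y mice 1 to 4 at 3 mo. At 19 mo they were 3, 1 and 7 in wild-type mice 2, 4 and 5 and 0, 2, 2 and 5 in V338Y mice 2 to 5. No library gave more than 7 counts (0.579 CPM), the gene did not pass the filter of 10 counts in any comparison, and no difference was detectable at this depth. The remaining 9 genes passed in all 5 comparisons.

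The transcript of the repressor was lower at 19 mo than at 3 mo in both genotypes, whereas that of the transcription factor did not pass the test. Keap1, the adaptor that presents Nrf2 to the ubiquitin ligase, was at 60.2, 62.6, 73.5 and 64.4 CPM in wild-type mice 1 to 4 at 3 mo and at 48.7, 47.0 and 49.0 CPM in wild-type mice 2, 4 and 5 at 19 mo. In V338Y mice it was at 63.9, 72.2, 70.2 and 59.7 CPM at 3 mo and at 34.9, 41.9, 42.8 and 41.1 CPM in mice 2 to 5 at 19 mo. Every old mouse was below every young mouse of its genotype. The log2 fold change was -0.43 ± 0.09 (SE) in wild-type mice with an edgeR adjusted p of 0.00747, and -0.71 ± 0.10 (SE) in V338Y mice with an edgeR adjusted p of 0.000524. Keap1 remained down-regulated in each of the 7 wild-type and 8 V338Y fits that left out 1 mouse.

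Nfe2l2 was at 49.0, 48.1, 44.3 and 38.0 CPM in young wild-type mice and at 38.2, 55.2 and 63.9 CPM in old ones. Young V338Y mice had 39.3, 45.3, 48.4 and 43.0 CPM, and old V338Y mice 33.4, 36.3, 47.3 and 61.3 CPM. The groups overlapped, the old mice spread over a wider range than the young ones, and the log2 fold changes of 0.23 ± 0.17 (SE) and 0.03 ± 0.18 (SE) did not pass (edgeR adjusted p = 0.317 and 0.891). In wild-type mice that result moved with single mice. Without mouse 2 at 19 mo the log2 fold change was 0.41 with an edgeR adjusted p of 0.0379, and without mouse 5 it was 0.05. Nfe2l2 was called in 1 of 7 such fits (edgeR adjusted p up to 0.839). Per unit of exon length, the ratio of Nfe2l2 to Keap1 transcripts was 0.730 to 1.01 in young and 0.969 to 1.61 in old wild-type mice, and 0.760 to 0.890 in young and 1.07 to 1.84 in old V338Y mice. The ages overlapped in wild-type mice and did not overlap in V338Y mice, a description without a test of the ratio.

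Keap1 and Gclm were the 2 of 9 genes tested that changed with age in wild-type mice, both down-regulated, where 36.2% of all 13657 genes changed and 17.8% were down-regulated. Keap1 was the only 1 of 9 in V338Y mice, where 46.9% of all 13868 genes changed and 22.5% were down-regulated. The groups of old and young mice did not overlap for 2 of 9 genes in wild type (43.4% of all genes, 21.7% lower) and for 1 of 9 in V338Y (42.2% of all genes, 21.9% lower), all lower at 19 mo. Counted in either direction, these shares of the 9 genes were below those of all genes. Counted among lower genes alone, 2 of 9 was near the share of all genes in wild type and 1 of 9 below it in V338Y. Over the 9 genes the log2 fold change had a median of -0.30 for wild-type and 0.03 for V338Y mice, against 0.02 and 0.07 over all genes tested.

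Glutathione synthesis depends on glutamate-cysteine ligase, with Gclc as its catalytic and Gclm as its modifier subunit. Gclm was at 20.8, 17.5, 21.0 and 21.5 CPM in young wild-type mice and at 12.9, 15 and 16.3 CPM in old ones. The ages did not overlap, and the log2 fold change was -0.45 ± 0.12 (SE) with an edgeR adjusted p of 0.0176. It was called in each fit that left out 1 mouse but not in the fit of all 15 mice (-0.45, edgeR adjusted p = 0.138). In V338Y mice Gclm was at 19.9, 16.3, 22.0 and 19.8 CPM at 3 mo and at 13.1, 11.5, 15.9 and 27.5 CPM at 19 mo, where 3 of the old mice were below every young mouse and mouse 5 was above all of them. Its log2 fold change in V338Y was -0.18 ± 0.25 (SE, edgeR adjusted p = 0.566), and -0.52 without mouse 5 (edgeR adjusted p = 0.0162).

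Gclc did not follow Gclm. It was at 16.1, 14.6, 15.8 and 17.2 CPM in young wild-type mice and at 11.9, 18.7 and 22.9 CPM in old ones, and at 15.9, 11.5, 12.4 and 11.9 CPM in young and 12.9, 13.3, 21.3 and 23.7 CPM in old V338Y mice. The groups overlapped, with log2 fold changes of 0.16 ± 0.19 (SE) in wild-type and 0.47 ± 0.21 (SE) in V338Y mice (edgeR adjusted p = 0.540 and 0.0909). Single mice decided these calls. Gclc passed in wild-type mice without mouse 2 at 19 mo (0.38, edgeR adjusted p = 0.0405), and in V338Y mice without mouse 2 (0.59, edgeR adjusted p = 0.0443) or mouse 3 (0.58, edgeR adjusted p = 0.0430) at 19 mo. The ratio of Gclc to Gclm per length was 1.26 to 1.40 in young and 1.54 to 2.35 in old wild-type mice, and 0.942 to 1.33 in young and 1.44 to 2.24 in old V338Y mice, without overlap of the ages in either genotype. Gsr, which returns oxidized glutathione to its reduced form, stayed between 19.3 and 41.6 CPM over all mice. Its log2 fold changes were 0.01 ± 0.11 (SE) and 0.08 ± 0.21 (SE) and did not pass (edgeR adjusted p = 0.948 and 0.778).

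Txnrd1, the cytosolic thioredoxin reductase, was at 77.1, 93.8, 101 and 102 CPM in young wild-type mice and at 58.8, 74.7 and 87.8 CPM in old ones. The log2 fold change of -0.34 ± 0.15 (SE) did not pass (edgeR adjusted p = 0.103) and did so without mouse 5 at 19 mo (-0.49, edgeR adjusted p = 0.0332). In V338Y mice Txnrd1 was at 83.2, 82.6, 72.6 and 71.6 CPM at 3 mo and at 43.7, 50.3, 63.4 and 105 CPM at 19 mo. Again 3 old mice were below every young mouse and mouse 5 was above all of them, and the log2 fold change of -0.23 ± 0.24 (SE, edgeR adjusted p = 0.454) became -0.54 without mouse 5 (edgeR adjusted p = 0.00894).

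Srxn1 encodes sulfiredoxin, which repairs over-oxidized peroxiredoxins, and spanned 16.6 to 76.3 CPM over the 15 mice. It was at 31.7, 47.1, 44.5 and 66.7 CPM in young and 20.4, 35.9 and 53.5 CPM in old wild-type mice. In V338Y mice it was at 35.0, 32.7, 36.2 and 19.1 CPM at 3 mo and at 23.7, 16.6, 28.3 and 76.3 CPM at 19 mo. The ages overlapped in both genotypes, and the log2 fold changes of -0.38 ± 0.32 (SE) and 0.25 ± 0.42 (SE) did not pass (edgeR adjusted p = 0.373 and 0.647). The second of these was -0.42 without mouse 5 (edgeR adjusted p = 0.166).

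Hmox1, the inducible heme oxygenase, was at 4.92, 5.89, 7.96 and 8.80 CPM in young and 4.91, 4.67 and 7.28 CPM in old wild-type mice. In V338Y mice it was at 9.31, 7.91, 7.94 and 5.42 CPM at 3 mo and at 4.81, 6.10, 5.72 and 21.2 CPM at 19 mo. Apart from mouse 5 the groups overlapped throughout. The log2 fold changes with age were -0.30 ± 0.24 (SE) and 0.33 ± 0.44 (SE) (edgeR adjusted p = 0.349 and 0.559), and the second was -0.45 without mouse 5 (edgeR adjusted p = 0.0739).

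**Figure D2:**
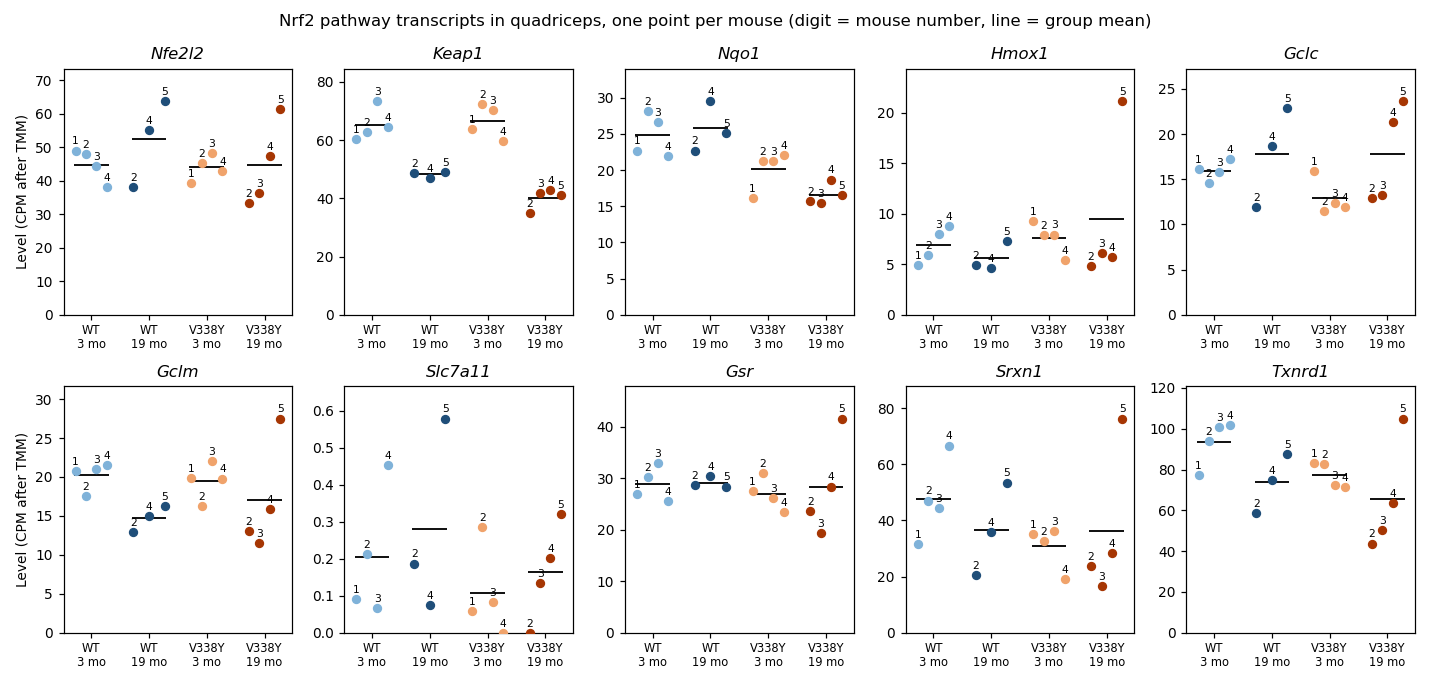
Level of each gene (CPM after TMM, linear axes from 0) in each mouse, with the mouse number above its point and the group mean as a line. Keap1 is lower in every 19 mo mouse than in every 3 mo mouse of its genotype, Nqo1 is lower in every V338Y than in every wild-type mouse at 19 mo, and V338Y mouse 5 lies above its group in Hmox1, Gclm, Gsr, Srxn1 and Txnrd1.

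Nqo1, a quinone reductase often used as a reporter of Nrf2 activity, had the smallest p of the 9 tested genes between genotypes at 19 mo. It was at 22.7, 29.6 and 25.1 CPM in wild-type mice 2, 4 and 5 and at 15.7, 15.4, 18.7 and 16.6 CPM in V338Y mice 2 to 5, so that each V338Y mouse was below each wild-type mouse. The log2 fold change of V338Y against wild type was -0.61 ± 0.13 (SE), with a 95% interval of -0.91 to -0.31 and an unadjusted edgeR p of 0.00143. The p ranked in the lowest 0.333% of all genes. It did not pass the adjustment over 13833 genes (edgeR adjusted p = 0.431), but it passed with DESeq2 (-0.62, adjusted p = 0.0462), and with the mouse number as a block its log2 fold change was -0.56 with an edgeR adjusted p of 0.0616. Leaving out each mouse in turn gave log2 fold changes of -0.69 to -0.50, and -0.60 without mouse 5. Over all alternatives its adjusted p ran from 0.0462 to 0.854.

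At 3 mo Nqo1 was at 22.7, 28.2, 26.6 and 21.9 CPM in wild-type and at 16.2, 21.3, 21.2 and 22.1 CPM in V338Y mice. The genotypes overlapped, and the log2 fold change of -0.31 ± 0.12 (SE) did not pass (edgeR adjusted p = 0.462). With age Nqo1 had log2 fold changes of 0.05 ± 0.13 (SE) in wild-type and -0.27 ± 0.12 (SE) in V338Y mice (edgeR adjusted p = 0.771 and 0.103). Without mouse 1 at 3 mo, the lowest of its group, the latter was -0.37 with an edgeR adjusted p of 0.0218. The difference between these age effects was -0.33 ± 0.18 (SE) and did not pass (edgeR adjusted p = 0.574).

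At 19 mo 0 of the 9 genes passed between genotypes with edgeR, against 0.0434% of all genes, and 1 of 9, Nqo1, had an unadjusted p under 0.05, against 8.93% of all genes and 2.75% with a lower level in V338Y. The deviations of mice of this age that share a number in their labels had r of 0.133 to 0.377. For pairs with different numbers the range was -0.374 to 0.443. With the number as a block 110 genes passed in place of 6, of which 0 were among these 9. Nqo1 and Keap1 were the 2 genes whose groups did not overlap, both lower in V338Y, where 9.79% of all genes did not overlap and 5.28% were lower in V338Y. For Keap1 the log2 fold change was -0.24 ± 0.10 (SE, edgeR adjusted p = 0.557). The 95% intervals of the other 7 were wide. They ran from -1.18 to 1.22 for Srxn1 and from -0.40 to 2.0 for Hmox1, and the narrowest, that of Gsr, from -0.56 to 0.53.

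At 3 mo 0 of the 9 genes passed between genotypes with edgeR, against 0.0750% of all genes, and 0 passed with DESeq2. An unadjusted p under 0.05 was seen for 4 of 9, against 9.70% of all genes, and all 4 had a log2 fold change below 0 (4.67% of all genes), namely Nqo1, Srxn1 (-0.61 ± 0.23, SE), Gclc (-0.29 ± 0.11, SE) and Txnrd1 (-0.26 ± 0.10, SE). Their edgeR adjusted p-values were 0.441 to 0.469, and 2 of the 9 genes had a log2 fold change above 0. All 9 genes overlapped between genotypes, as did all but 4.71% of genes. For Txnrd1, wild-type mouse 1 at 77.1 CPM fell within the V338Y range of 71.6 to 83.2 CPM, and for Srxn1 wild-type mouse 1 at 31.7 CPM fell within 19.1 to 36.2 CPM. Without wild-type mouse 1 the log2 fold changes were -0.34 for Txnrd1 and -0.76 for Srxn1, and neither passed. Keap1 (0.03 ± 0.09, SE), Nfe2l2 (-0.03 ± 0.10, SE) and Gclm (-0.04 ± 0.10, SE) differed little, with 95% intervals of -0.16 to 0.22, -0.24 to 0.19 and -0.27 to 0.19. These 2 genotype comparisons share no mice, but each shares mice with the age comparisons.

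The difference between the age effects of the genotypes was tested in a fit of all 15 mice. It passed for 0 of the 9 genes with edgeR, against 0.00% of all 14128 genes, while 9.63% of all genes and 1 of these 9 had an unadjusted p under 0.05. That 1 was Keap1, with a more negative age effect in V338Y (4.57% of all genes), at -0.29 ± 0.13 (SE, edgeR adjusted p = 0.504). The larger fall of Keap1 in V338Y mice was therefore not separated from that in wild-type mice after adjustment. With age and mouse number as blocks 117 of all genes passed, again with 0 of these 9. That block also joined the 3 mo mice by number, and same-numbered mice of that age did not deviate together (r = -0.224 to 0.150). DESeq2 called 26 genes, with 0 of these 9.

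**Figure D3:**
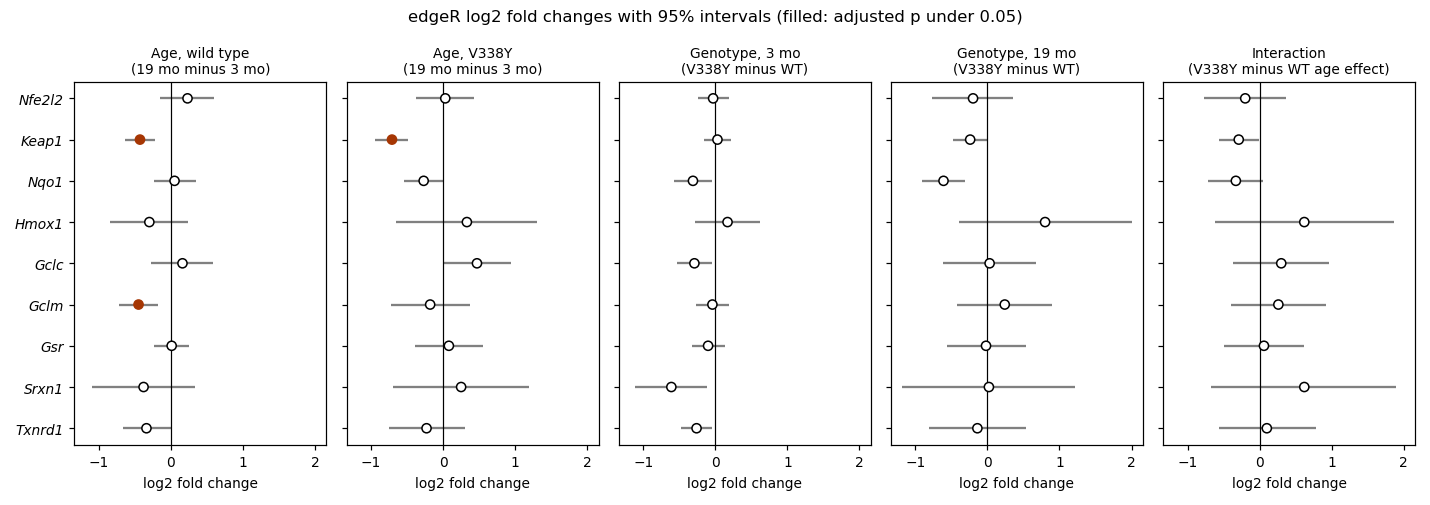
Log2 fold changes of the 9 tested genes in the 5 comparisons (points, edgeR) with 95% intervals (bars), filled where the adjusted p was under 0.05. Filled points are Keap1 and Gclm for age in wild type and Keap1 for age in V338Y, the interval of Nqo1 at 19 mo lies below 0, and those of Hmox1 and Srxn1 at 19 mo are the widest.

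Within groups, several of the 9 genes rose and fell together from mouse to mouse, in part through V338Y mouse 5 at 19 mo, which had the largest deviation in Hmox1, Gclm, Gsr, Srxn1 and Txnrd1. Each r below is Pearson's r of log2 of CPM plus 0.5 after the group means were subtracted, over the 15 mice and then over the 14 mice without that library, an alternative added after the values were seen. The r fell little for Gclc with Txnrd1 (0.81 and 0.80) and for Gclc with Gclm (0.75 and 0.73), and it was 0.88 and 0.75 for Srxn1 with Txnrd1 and 0.90 and 0.69 for Hmox1 with Txnrd1. It fell further for Gclm with Txnrd1 (0.80 and 0.39), Gsr with Txnrd1 (0.78 and 0.42) and Hmox1 with Gclm (0.79 and 0.22). Nfe2l2 had 0.75 and 0.66 with Gclc, 0.74 and 0.54 with Txnrd1 and 0.48 and 0.60 with Nqo1. Its values fell further with Gclm (0.71 and 0.46), Srxn1 (0.66 and 0.41), Gsr (0.64 and 0.34) and Hmox1 (0.53 and 0.03). Keap1 had 0.41 and 0.53 with Txnrd1, 0.40 and 0.59 with Hmox1 and 0.11 and 0.03 with Gclm. Over the 15 mice the lowest values were those of Nqo1, which had 0.08 and 0.09 with Gclc, 0.05 and 0.07 with Srxn1 and -0.17 and -0.33 with Hmox1. Over the 14 mice Nfe2l2 with Hmox1 and Keap1 with Gclm (0.03 each) were below Nqo1 with Gclc and with Srxn1. Nqo1 had 0.28 and 0.44 with Gsr. These are descriptions of libraries that differ in depth and in the cells they sampled.

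Mouse 5 was the highest of the 4 old V338Y mice in 7 of the 9 tested genes, whereas it was the highest in 29.0% of all 13833 genes. It exceeded the next mouse 3.47 times in Hmox1, 2.70 times in Srxn1, 1.73 times in Gclm, 1.66 times in Txnrd1, 1.46 times in Gsr, 1.30 times in Nfe2l2 and 1.11 times in Gclc. Keap1 at 0.961 times and Nqo1 at 0.888 times the highest of the others were the exceptions. The same library was highest in summed neutrophil markers (545 CPM) and erythroid markers (783 CPM, against 159 to 433 in the other 3) and lowest in muscle fiber markers (70371 CPM, against 80303 to 115782), fibroblast markers (632 CPM, against 1055 to 1353) and macrophage markers (367 CPM, against 395 to 445). The part of these cells in the Nrf2 pathway values was not tested.

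The wild-type mice of 19 mo showed an order of the same kind. In 5 of the 9 genes, Nfe2l2, Gclc, Gclm, Srxn1 and Txnrd1, mouse 2 was lowest and mouse 5 highest of the mice 2, 4 and 5 in both genotypes, a pattern held by 7.19% of all genes and noticed after the values were seen. The genes vary together and are not independent of each other. In wild-type mice 2, 4 and 5 muscle fiber markers summed to 133831, 104533 and 87474 CPM, which is the opposite order. In V338Y mice 2, 4 and 5 they summed to 80303, 89822 and 70371 CPM, which is not.

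**Figure D4:**
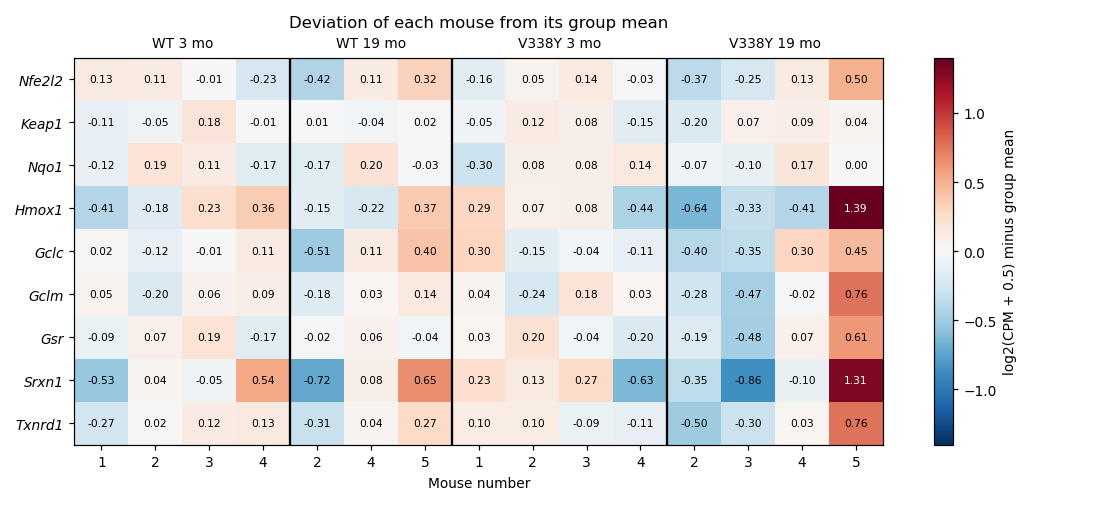
Deviation of each mouse from its group mean in log2(CPM + 0.5), with genes in rows, mice in columns and the value in each cell (red above, blue below the mean). V338Y mouse 5 at 19 mo is red from Hmox1 (1.39) to Txnrd1 (0.76), while its Keap1 (0.04) and Nqo1 (0.00) are near the mean of the group.

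Over all 15 mice, without subtraction of group means, the 3 closest patterns to Nfe2l2 were those of Mafk, a small Maf partner of Nrf2 (r = 0.93), Tfdp2 (0.93) and Retreg1 (0.91). Keap1 was followed most closely by Arih2 (0.99), Plaa (0.98) and Ube2g1 (0.98). For Gclc the closest were Slc38a2 (0.94), an amino acid transporter, Osgin1 (0.92) and Gpat3 (0.90), and for Gclm Smc4 (0.88), Musk (0.86) and Myf6 (0.86). For Srxn1 they were Gsto1 (0.92), the metallothionein Mt1 (0.88) and Akap1 (0.87), for Txnrd1 Ppp2ca (0.91), Zpr1 (0.90) and Mlycd (0.90), and for Gsr Cntf (0.81), Mafg (0.80) and Nek2 (0.80). Hmox1 was closest to Tuba1c (0.94), Rrm2 (0.87) and Hist1h2bb (0.85), and Nqo1 to Zfp85 (0.91), Top2b (0.87) and Eif3j1 (0.87). These values come from the same 15 libraries, and each includes differences between groups, such as that of Keap1 between ages. Single libraries weigh in them as well. Hmox1 was at 21.2 CPM in V338Y mouse 5 at 19 mo and at 4.67 to 9.31 CPM in the other mice. Likeness without that library was not computed.

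Of 67 further genes of the pathway in 7 lists, 59 were tested for age in wild-type mice, of which 6 were up-regulated and 15 down-regulated (35.6%, against 36.2% of all genes). In V338Y mice 60 were tested, with 10 up-regulated and 15 down-regulated (41.7%, against 46.9%). Without mouse 5 these were 9 and 15 of 58. With single mice left out the counts were 2 to 8 higher and 10 to 14 lower in wild-type mice, the fewest without mouse 3 at 3 mo, and 8 to 11 higher and 10 to 15 lower in V338Y mice. Between genotypes 0 of 58 passed at 3 mo and 0 of 61 at 19 mo with edgeR, against 0.0750% and 0.0434% of all genes. An unadjusted p under 0.05 was held by 5 of the 58 and 11 of the 61, against 9.70% and 8.93% of all genes. At 19 mo 2 of the 61 passed with the mouse number as a block and 2 with DESeq2, all in the NADPH list described below. The lists were chosen with earlier results of these data known.

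Of the partners and regulators 1 was up-regulated and 2 were down-regulated with age in each genotype, of 9 tested in wild-type and 10 in V338Y mice (36.2% and 46.9% of all genes). Both proteins that join Keap1 in its ubiquitin ligase had lower transcript levels at 19 mo. Cul3, the scaffold, fell in wild-type mice from 353 ± 14.2 (SD, n = 4) to 280 ± 29.2 CPM (SD, n = 3). Its level in the V338Y groups fell from 364 ± 27.8 to 219 ± 35.1 CPM (SD, both n = 4). The log2 fold changes were -0.33 ± 0.10 (SE) and -0.72 ± 0.13 (SE), with edgeR adjusted p-values of 0.0252 and 0.00163. Rbx1, the RING subunit, had log2 fold changes of -0.63 ± 0.10 (SE) and -0.68 ± 0.11 (SE), with edgeR adjusted p-values of 0.00190 and 0.00115. For both genes old and young mice did not overlap in either genotype. Rbx1 was called in every fit that left out 1 mouse, and Cul3 in all 8 such fits in V338Y but in only 2 of 7 in wild-type mice. It was lost there without mouse 2, 3 or 4 at 3 mo and without mouse 4 or 5 at 19 mo, with log2 fold changes of -0.42 to -0.27 over the 7 fits and edgeR adjusted p-values up to 0.0724. The third gene was Bach2, a repressor that binds ARE-like sites, up-regulated from low levels (2.01 to 4.70 CPM in wild-type mice, edgeR adjusted p = 0.0266, and 1.93 to 4.35 CPM in V338Y mice, edgeR adjusted p = 0.0257). The groups overlapped for Bach2, and with single mice left out it was called in 2 of 7 fits in wild-type mice (edgeR adjusted p up to 0.10) and 3 of 8 in V338Y mice (edgeR adjusted p up to 0.0672). It was lost without wild-type mouse 1, 3 or 4 at 3 mo or 4 or 5 at 19 mo, and without V338Y mouse 2, 3 or 4 at 3 mo or 4 or 5 at 19 mo. Cul3 and Rbx1 also serve ligases other than that of Keap1.

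In the thioredoxin list 3 of 6 tested genes were down-regulated and 0 up-regulated in each genotype, where the down-regulated share of all genes was 17.8% for wild type and 22.5% for V338Y. Prdx1, a peroxiredoxin that thioredoxin keeps reduced, fell in wild-type mice from 187 ± 10.4 (SD, n = 4) to 116 ± 12.7 CPM (SD, n = 3), and in V338Y mice from 207 ± 10.5 to 110 ± 4.47 CPM (SD, both n = 4). Its log2 fold changes were -0.70 ± 0.10 (SE) and -0.91 ± 0.08 (SE), with edgeR adjusted p-values of 0.00125 and 9.38e-05. Txn1, thioredoxin itself, had log2 fold changes of -0.37 ± 0.13 (SE) and -0.48 ± 0.11 (SE), with edgeR adjusted p-values of 0.0450 and 0.00619. The mitochondrial Txn2 was the third in wild-type (-0.58 ± 0.11, SE) and Txnrd3 the third in V338Y mice (-0.44 ± 0.16, SE). Prdx1 was called with every mouse left out in turn. Txn1 in wild-type mice was called in 2 of 7 such fits (edgeR adjusted p up to 0.118) and lost without mouse 1, 3 or 4 at 3 mo or 2 or 5 at 19 mo, and also with upper-quartile scaling. Txnrd3 in V338Y mice was called in 2 of 8 (edgeR adjusted p up to 0.107), without mouse 2 or 3 at 19 mo.

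In the glutathione list 2 of 10 were up-regulated and 3 down-regulated in each genotype, beside 36.2% of all genes that changed in the wild type and 46.9% in V338Y. Gpx3, the secreted glutathione peroxidase, rose in wild-type mice from 68.1 ± 10.4 (SD, n = 4) to 141 ± 21.5 CPM (SD, n = 3), with log2 fold changes of 1.05 ± 0.14 (SE, edgeR adjusted p = 0.00101) there and 0.88 ± 0.22 (SE, edgeR adjusted p = 0.0100) in V338Y mice. Slc3a2, the heavy chain that pairs with Slc7a11 among other light chains, rose by 0.38 ± 0.10 (SE, edgeR adjusted p = 0.0176) and 0.51 ± 0.12 (SE, edgeR adjusted p = 0.00662) in log2. Chac2, which degrades glutathione, fell in both, by 0.57 and 0.79 on the log2 scale, and so did the glutaredoxin Glrx, by 0.75 (edgeR adjusted p = 0.00630) and 0.59 (edgeR adjusted p = 0.0325). Gpx1 was called lower in wild-type mice (-0.53 ± 0.15, SE, edgeR adjusted p = 0.0253) and Gpx4 in V338Y mice (-0.43 ± 0.11, SE, edgeR adjusted p = 0.00908), and the difference between genotypes in these age effects was not called for either (edgeR adjusted p = 0.867 and 0.631). With single mice left out Gpx1 was called in 2 of 7 fits in wild-type mice (edgeR adjusted p up to 0.0711), lost without mouse 1, 3 or 4 at 3 mo or 4 or 5 at 19 mo, and Glrx in 3 of 8 in V338Y mice (edgeR adjusted p up to 0.0966), lost without mouse 1, 2 or 3 at 3 mo or 3 or 4 at 19 mo. In wild-type mice Slc3a2 was lost without mouse 3 at 3 mo or 5 at 19 mo (edgeR adjusted p up to 0.0524) and Chac2 without mouse 4 at 19 mo (edgeR adjusted p = 0.0501).

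In conjugation and export 3 were up-regulated and 4 down-regulated of 15 in wild-type mice, and 4 and 4 of 16 in V338Y mice, again beside 36.2% and 46.9% of all genes. The 3 up-regulated in wild-type mice became 1 with no filter, in the fit of all 15 mice and without mouse 3 at 3 mo, that 1 being Gstm2. Gstm2 was higher (0.74 ± 0.14, SE, and 0.63 ± 0.10, SE), whereas its relative Gstm5 (-0.69 ± 0.11, SE, and -0.92 ± 0.09, SE) and the membrane-bound Mgst3 (-0.72 ± 0.11, SE, and -1.09 ± 0.15, SE) were lower, and these 3 were called with every mouse left out in turn. The Gstm genes are close paralogs, and how reads shared between them were assigned cannot be read from the counts.

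Of the 6 heme and iron genes 2 were down-regulated in each genotype (17.8% and 22.5% of all genes), Hmox2 in both (-0.45 ± 0.14, SE, and -0.22 ± 0.08, SE), with the iron exporter Slc40a1 in wild-type (-0.48 ± 0.14, SE) and biliverdin reductase Blvra in V338Y mice (-0.41 ± 0.12, SE). Hmox2 encodes the constitutive heme oxygenase. These calls changed with single mice. In wild-type mice 0 of the 6 were called without mouse 1 or 3 at 3 mo or mouse 4 at 19 mo, and 1 in the fit of all 15 mice, and Hmox2 in V338Y mice was called in 1 of 8 fits with a mouse left out, that without mouse 3 at 19 mo (edgeR adjusted p up to 0.0897). Of the quinone and carbonyl list, the group nearest to Nqo1 in function, 0 of 7 passed in wild-type and 0 of 6 in V338Y mice. Of all genes 36.2% and 46.9% passed.

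Of the 6 genes of NADPH supply, which Gsr, Txnrd1 and Nqo1 draw on, 3 were up-regulated and 1 was down-regulated with age in V338Y mice, where 24.4% of all genes were up-regulated. G6pdx, the first enzyme of the pentose phosphate pathway, rose from 5.64 ± 0.914 (SD, n = 4) to 18 ± 4.62 CPM (SD, n = 4), a log2 fold change of 1.68 ± 0.20 (SE) with an edgeR adjusted p of 0.000276. Pgd rose by 1.36 ± 0.22 (SE, edgeR adjusted p = 0.00117) and Tkt by 1.93 ± 0.36 (SE, edgeR adjusted p = 0.00230), and Taldo1 fell by 0.34. In wild-type mice 1 of 6 changed, against 36.2% of all genes. It was Taldo1, which was down-regulated (-0.65 ± 0.15, SE, edgeR adjusted p = 0.00972). G6pdx, Pgd and Tkt were called in all 8 fits that left out a V338Y mouse. At 19 mo G6pdx, Pgd, Tkt and Idh1, named after their values were seen, had an unadjusted p under 0.05 for higher levels in V338Y. Of all genes 6.17% did, and the edgeR adjusted p-values of these 4 were 0.302 to 0.537. With the mouse number as a block G6pdx (1.27 ± 0.17, SE, edgeR adjusted p = 0.0268) and Tkt (1.97 ± 0.19, SE, edgeR adjusted p = 0.00862) passed, and both passed with DESeq2 (adjusted p = 0.00129 and 0.000117). For the difference between age effects G6pdx stood at 1.54 ± 0.30 (SE, edgeR adjusted p = 0.206). With age and mouse number as blocks G6pdx (edgeR adjusted p = 0.0174), Pgd (0.0396) and Tkt (0.0152) passed. That block also joined the 3 mo mice by number, and same-numbered mice of that age did not deviate together (r = -0.224 to 0.150). The study drew attention to G6pdx, Pgd and Tkt in these same mice, so that they are no independent evidence. Nqo1, in contrast, had a log2 fold change below 0 between genotypes at 19 mo.

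With age, adipocyte markers (5 genes) moved the same way as Tkt in both genotypes. They moved the same way as G6pdx and Pgd in V338Y but not in wild-type mice. The summed markers went from a mean of 568 to 215 CPM with age in wild-type and from 288 to 457 CPM in V338Y mice. The medians went from 459 to 226 CPM and from 256 to 403 CPM, and young wild-type mouse 1 stood at 1086 CPM. Tkt went from a mean of 33.3 to 18.8 CPM and from 17.7 to 67.2 CPM. In wild-type mice G6pdx went from a mean of 7.53 to 8.18 CPM and Pgd from 11.9 to 13.8 CPM, neither called (edgeR adjusted p = 0.645 and 0.470). Between genotypes G6pdx, Pgd and the marker sum had lower means in V338Y at 3 mo and higher means in V338Y at 19 mo. At 3 mo G6pdx had a mean of 5.64 CPM and Pgd of 9.58 CPM in V338Y mice, neither called. At 19 mo the sums were 140 to 280 CPM in wild-type and 154 to 867 CPM in V338Y mice, with overlap. Of the 5 markers 2 were down-regulated in wild-type mice (17.8% of all genes) and 1 was up-regulated in V338Y mice (24.4% of all genes). The latter was Plin1, the lipid droplet coat protein (4.14-fold, edgeR adjusted p = 0.00610). The part of fat cells in the values of the NADPH genes was not tested.

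**Figure D5:**
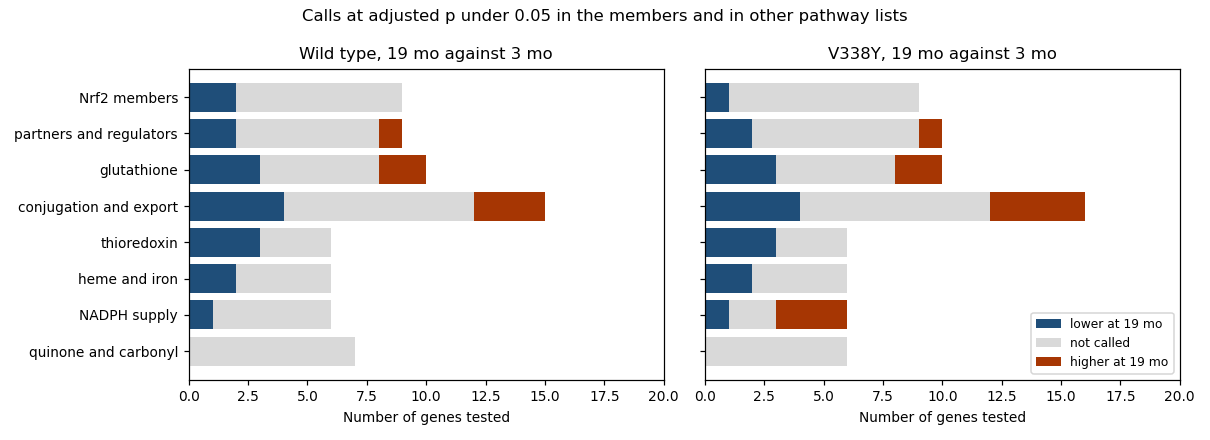
Number of genes tested in the Nrf2 pathway members and in each of 7 further lists that were lower (blue), higher (red) or not called (grey) at 19 mo against 3 mo, in wild-type (left) and V338Y mice (right). The thioredoxin list has 3 lower and 0 higher genes in each genotype, and NADPH supply has 3 higher genes in V338Y against 0 in wild-type mice.

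Markers of other cells moved with age as well. Summed fiber markers went from a median of 128614 to 104533 CPM in wild-type and from 142360 to 85063 CPM in V338Y mice, macrophage markers (8 genes) from 231 to 356 CPM and from 247 to 410 CPM, and endothelial markers (4 genes) from 148 to 220 CPM and from 143 to 254 CPM. Fibroblast markers (4 genes) went from 1242 to 961 CPM and from 1412 to 1112 CPM. The fiber and fibroblast sums joined genes that moved in opposite directions. Of the 8 fiber markers 1 (Myh7) was up-regulated and 2 were down-regulated in wild-type mice, and 0 and 4 in V338Y mice. The fiber sum was mostly Myh4, with a mean of 68656 of 128912 CPM in young wild-type mice. Myh4 was not called with age in wild-type or V338Y mice (edgeR adjusted p = 0.521 and 0.175). Of the 4 fibroblast markers 1 (Pdgfra) was up-regulated and 2 (Col1a1 and Col3a1) were down-regulated in wild-type mice, and 0 and 2 in V338Y mice. Of all genes 36.2% and 46.9% changed. None of the 7 lists had a gene at 0 in all mice, and the neutrophil list, whose genes are defining for that cell, summed to 0 to 1.72 CPM at 3 mo. The part of these shifts in the age differences of Keap1 and Gclm was not tested. Erythroid markers (5 genes) went from a median of 175 to 124 CPM in wild-type and from 231 to 298 CPM in V338Y mice. At 19 mo the macrophage markers were at 308 to 359 CPM in wild-type and 367 to 445 CPM in V338Y mice, without overlap, and the erythroid markers at 97.2 to 151 CPM and 159 to 783 CPM, also without overlap. Their part in the difference of Nqo1 was not tested either.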

How the data were processed

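The authors sequenced quadriceps RNA of each mouse as single-end reads and estimated counts per gene with RSEM against Ensembl annotation. The deposited expected counts are whole numbers without scaling, and how they were rounded is not given in the sources used here. Mice were grouped by the genotype and age in their labels, which do not say whether they shared litters or days. Of the 39179 identifiers 37607 matched a symbol in GENCODE annotation of GRCm38.

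In R 4.3.3, genes that reached 10 counts in 50% or more of a compared group were kept, scaled by TMM and tested with edgeR 4.0.16 (quasi-likelihood), with Benjamini-Hochberg adjustment over all genes. Intervals of fold changes cover 95%. DESeq2 1.42.0, other scalings and filters, blocking on the mouse number, fitting all 15 mice together and omitting single mice were alternatives. The code was tested on simulated data. Level differences between genes use exon length. At 19 mo the deviations of same-numbered mice of the 2 genotypes had r = 0.133 to 0.377 over 3 pairs (mean 0.240). The 9 pairs with different numbers ran from -0.374 to 0.443 (mean -0.0773), so the ranges overlapped. Of 6 mice 5 correlated best with their own number, and these 6 are the same 3 pairs seen from either side. What the number stands for is not known, and the block is given beside that comparison as an alternative.

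All members were named in every comparison, and from each list up to 3 called genes with the smallest adjusted p. Some genes were named beside that rule, such as Slc3a2 and Gpx1 in wild-type mice, Taldo1 in V338Y mice and Idh1, which was not called. For likeness, the 3 genes with the highest r were taken. The members and lists were chosen with earlier results of these data known.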

Additional observations from a re-analysis of the deposited data

Results flagged for a closer look

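In groups of 4 mice, the distance of the highest or lowest mouse from its nearest neighbour was compared with the range of the group for the 10 genes, and 2 of 30 groups were marked by Dixon's criterion, which chance exceeds in about 1 of 20. Nqo1 in V338Y mouse 1 at 3 mo was at 16.2 CPM, below the 21.2 to 22.1 CPM of the other 3, a gap of 0.839 of the range. Hmox1 in V338Y mouse 5 at 19 mo was at 21.2 CPM, above the 4.81 to 6.10 CPM of the other 3, a gap of 0.921 of the range. The second is the library with 545 CPM of summed neutrophil markers, and the part of those cells in the value was not tested.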

How the results depend on the processing

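Keap1 was down-regulated with age in both genotypes under every alternative, and lost its call only in wild-type mice with the mouse number as a block (-0.40, edgeR adjusted p = 0.0794). Gclm in wild-type mice lost its call with that block (-0.47, edgeR adjusted p = 0.0925) and in the fit of all 15 mice (-0.45, edgeR adjusted p = 0.138). The latter fit left 1 gene called of the 9, where 4975 of all genes were called. Nqo1 at 19 mo kept its direction under every alternative, and with DESeq2 1 of the 9 genes passed, where 62 of all genes passed.

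Same-numbered mice did not deviate together at 3 mo (r = -0.224 to 0.150) or between ages in V338Y mice (r = -0.127 to 0.0161), where 0 of 8 and 0 of 6 mice correlated best with their own number, and for age in wild-type mice only 2 numbers recur. There the mice share a number only. With the block 2229 genes passed for age in wild-type mice, among them Srxn1 (-1.04) and Txnrd1 (-0.55), while Gclc was at -0.08. For age in V338Y mice 5505 genes passed with the block, among them 4 of the 9 (Keap1, Nqo1, Gclm and Txnrd1). Nfe2l2 was then at -0.23, Hmox1 at -0.34, Gsr at -0.18 and Srxn1 at -0.35. At 19 mo, where 5 of 6 mice correlated best with their own number, it gave 110 genes, with Gsr at 0.10. For the interaction, whose block also joined the 3 mo mice by number, it gave 117. Among the 9 genes it changed no other call. Of the further pathway genes it left 2 up-regulated and 7 down-regulated of 59 for age in wild-type mice, against 6 and 15, and 9 and 13 of 60 in V338Y mice, against 10 and 15.

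Between genotypes at 3 mo DESeq2 called 66 and no filter 33 genes, against 10. At 19 mo they called 62 and 14, against 6, and for the interaction 26 and 5, against 0. For age in wild-type mice Gsr was at -0.00 with RLE scaling and with DESeq2 and at -0.02 with no filter, and Srxn1 at 19 mo was at -0.01 with no filter and at -0.00 in the fit of all 15 mice. The cause of these differences was not tested.

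With each mouse left out in turn, 2 to 4 of the 9 genes were called for age in wild-type mice and 1 to 3 in V338Y mice. Of all genes 3431 to 4837 were called in these fits in wild-type and 5182 to 6448 in V338Y mice. The 4 arose without mouse 2 at 19 mo, where 4837 of all genes were called, and the 3 without mouse 5, where 6391 were called. In V338Y mice 2 were called without mouse 1 at 3 mo or mouse 2 or 3 at 19 mo. Between genotypes 3 to 14 genes of all were called at 3 mo and 2 to 7 at 19 mo, the fewest without V338Y mouse 3 at 3 mo and wild-type mouse 4 at 19 mo. Leaving out single mice moved the sign of log2 fold changes that had not passed. For age in wild type the ranges were Nqo1 -0.07 to 0.13, Gclc -0.07 to 0.38 and Gsr -0.05 to 0.08. For age in V338Y the ranges were Nfe2l2 -0.15 to 0.15, Hmox1 -0.45 to 0.54, Gsr -0.16 to 0.22 and Srxn1 -0.42 to 0.48. Between genotypes at 3 mo the ranges were Nfe2l2 -0.10 to 0.03, Keap1 -0.01 to 0.09 and Gclm -0.11 to 0.03. Between genotypes at 19 mo the ranges were Gclc -0.19 to 0.25, Gclm -0.10 to 0.40, Gsr -0.26 to 0.14, Srxn1 -0.65 to 0.40 and Txnrd1 -0.46 to 0.01. For the interaction the ranges were Hmox1 -0.14 to 0.85, Gclm -0.06 to 0.42, Gsr -0.17 to 0.21, Srxn1 -0.03 to 1.0 and Txnrd1 -0.19 to 0.28.

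Counts of Slc7a11, at most 7 per library, limit what can be said of it, and 3 or 4 mice per group limit the rest.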
